A study of Mus musculus with 2 samples.

Results

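The mitochondrial genome of the mouse encodes 13 mRNAs, and 10 of them are described here: mt-Nd1, mt-Nd2, mt-Nd3, mt-Nd4, mt-Nd5, mt-Co1, mt-Co2, mt-Co3, mt-Atp6 and mt-Cytb. They were taken by name and not by a filter on their levels, though earlier results of these data were known. They are 10 of the 27998 genes in the count matrices of both libraries. Single-cell RNA was sequenced from the marrow of 3-month-old mice after a sort for LSK (Lin- Sca-1+ c-Kit+) cells, which are enriched for haematopoietic stem cells (HSCs) and early progenitors. There was 1 library of Trmt6 WT cells, labelled Trmt6fl/fl, and 1 library of Trmt6 cKO cells, labelled Trmt6fl/fl with MX1-cre. The study's methods differ from the labels, since they describe Mx1-Cre and polyI:C injections in both genotypes and Trmt6+/+ mice as the wild type. The TRMT6 protein works with TRMT61A to methylate cytosolic tRNA, which gives m1A. Mx1-Cre is switched on by interferon and is not limited to blood cells. How many mice went into a library is not given in the sources used here. With 1 library per group, genotype and library cannot be told apart, and no difference below has a replicate check or a test. All intervals are 95% intervals for counting error only.

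The 10 mRNAs encode core subunits of the respiratory chain, the enzyme series in the inner mitochondrial membrane that moves electrons to oxygen and pumps protons. The Nd genes encode subunits of complex I, mt-Cytb a subunit of complex III, the Co genes the catalytic core of complex IV, and mt-Atp6 the proton channel of the ATP synthase, complex V. Both strands of mitochondrial DNA are transcribed as long precursors that hold many genes, and the mRNAs are released where the tRNAs that lie between them are cut out. The 10 mRNAs then receive a short poly(A) tail, so that they are captured by the oligo(dT) primers of a 3-prime single-cell library. Because the genes share precursors, unequal levels of mature mRNAs are generally ascribed to processing and decay. Haematopoietic stem cells are known for low oxidative metabolism, which increases as they differentiate.

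All 10 genes lie on the plus strand of the annotation (GENCODE M21, GRCm38), which is the sense of the heavy-strand transcript, and none has an intron. In the order of the genome they are mt-Nd1 (chrM:2751-3707), mt-Nd2 (chrM:3914-4951), mt-Co1 (chrM:5328-6872), mt-Co2 (chrM:7013-7696), mt-Atp6 (chrM:7927-8607), mt-Co3 (chrM:8607-9390), mt-Nd3 (chrM:9459-9806), mt-Nd4 (chrM:10167-11544), mt-Nd5 (chrM:11742-13565) and mt-Cytb (chrM:14145-15288). A 3-prime library counts each mRNA from its end. The last 30 annotated bases are therefore shown for the 4 mRNAs on which the comparisons below turn, and for the most abundant one. The annotated genes stop with the coding sequence. Whether an mRNA runs on past its annotated end was not examined, and reads from beyond that end would not count for the gene. Capitals mark the annotated stop codon, or the first base of a stop codon that the poly(A) tail completes.
mt-Nd2: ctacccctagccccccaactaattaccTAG
mt-Nd5: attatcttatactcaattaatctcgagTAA
mt-Co1: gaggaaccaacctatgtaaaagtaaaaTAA
mt-Co3: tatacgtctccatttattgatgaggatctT
mt-Atp6: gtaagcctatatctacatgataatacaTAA
Among the 10 genes as annotated, 7 ended in a complete stop codon and 3 (mt-Co3, mt-Nd4 and mt-Cytb) in the single T shown for mt-Co3. Their GC content ranged from 33.0% in mt-Nd3 to 39.9% in mt-Co1, and the longest run of A ranged from 4 bases in mt-Co2 to 8 bases in mt-Nd2.

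Some of the genes overlap, which bears on how they were counted. mt-Atp6 starts inside mt-Atp8, with which it shares 43 bases and an mRNA, and it meets mt-Co3 in 1 shared base. The 2 starts are shown with the start codon in capitals, the first at chrM:7917-7946 and the second at chrM:8594-8622.
mt-Atp6: gagaattaaaATGaacgaaaatctatttgc
mt-Co3: atgataatacataATGacccaccaaactc
mt-Nd4l likewise shares 7 bases and an mRNA with mt-Nd4. In each of these mRNAs the 3-prime end belongs to the downstream gene, mt-Atp6 or mt-Nd4. The annotated end of mt-Nd5, at chrM:13565, overlaps mt-Nd6 (chrM:13552-14070), which lies on the opposite strand between mt-Nd5 and mt-Cytb. Where the mRNA of mt-Nd5 ends was not examined. Nuclear copies of mitochondrial DNA are a further limit. Of the stretches of 50 bases in each mRNA, the share found without a mismatch in a nuclear transcript of GENCODE M21 was 100% for mt-Co2, 99.9% for mt-Co3, 99.5% for mt-Atp6, 98.0% for mt-Nd3, 62.2% for mt-Nd4 and 51.1% for mt-Co1. It was 8.19% for mt-Nd2 and 7.61% for mt-Nd5, and 0% for mt-Nd1 and mt-Cytb. By sequence alone, reads from such stretches cannot be assigned to 1 place, so levels of those genes depend on how the counting treated them. By name, the nuclear genes that hold these stretches were not among the counted genes. The exception was 1 gene that shares stretches with mt-Nd5 (Gm4076).

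In WT there were 8869 cell barcodes with 47991455 UMIs (unique molecular identifiers, counted molecules) and in cKO 9260 barcodes with 98323201 UMIs, and 24 barcode sequences occurred in both. After removal of cells at 10% or more mitochondrial UMIs, of likely doublets and of cells outside the other limits, 8146 cells remained in WT, with a median of 4296 UMIs, and 8500 in cKO, with a median of 10127. Trmt6 stood at 63.7 CPM (counts scaled so that 10000 CPM are 1% of a library's UMIs) in WT and 50.4 CPM in cKO, and 3-prime counts do not show whether a transcript held the floxed part. Kit and Ly6a, which encode the sorted surface proteins c-Kit and Sca-1, were present in both libraries, at 63.4 and 34.1 CPM in WT and 21.9 and 143 CPM in cKO. The 5 neutrophil markers summed to 4314 CPM in WT and 1.81 CPM in cKO, where each was above 0 but under 1 CPM. At least 3 of them were seen in 114 WT cells and 0 cKO cells. The differences below include these WT cells, and without them the log2 ratio of the summed mitochondrial mRNAs was -0.37. Counted as cells with at least 3 markers, other cell types leaned to the cKO library, but most of their summed marker levels did not. At least 3 of 5 B cell markers were seen in 1 WT and 63 cKO cells. The same counts were 0 and 5 for T or NK, 54 and 75 for monocyte or dendritic, and 5 and 16 for mast or basophil markers. Summed over all kept cells, only the B cell markers were higher in cKO (72.2 CPM, against 59.7 in WT). The T or NK markers were higher in WT (575 CPM, against 289 in cKO). So were the monocyte or dendritic (269 against 240) and the mast or basophil markers (184 against 71.3). The cells with at least 3 markers of these types were also left in.

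The 10 mRNAs made up a smaller share of the UMIs in the cKO library. Together they were 2.34% of UMIs (2.34% to 2.35%) in WT and 1.83% (1.82% to 1.83%) in cKO, a log2 ratio of cKO over WT of -0.36 (-0.36 to -0.35). The share of single cells had a median of 2.49% in WT, with the middle 80% of cells between 1.77% and 3.35%. In cKO the median was 1.86%, with the middle 80% between 1.35% and 2.55%, so the cells of the libraries overlapped widely. In absolute numbers the order was the opposite: the mean cKO cell held 189.6 UMIs of these mRNAs and the mean WT cell 124, a ratio of 1.53, while total UMIs per cell differed 1.96-fold. No kept cell lacked a UMI of these genes. Transcripts of cytosolic ribosomal protein genes, a large part of both libraries, were 31.5% of UMIs in WT and 36.3% in cKO. With mitochondrial and ribosomal protein genes left out of the total, the log2 ratio of the summed mRNAs was -0.26.

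Within each library the levels of the mRNAs differed widely. Per kilobase of gene length, mt-Atp6 was highest, at 10750.5 CPM per kb in WT and 7488 in cKO, and mt-Nd5 was lowest, at 118 and 65.2. The order per kilobase was the same in both libraries: mt-Atp6, mt-Co3, mt-Co2, mt-Co1, mt-Cytb, mt-Nd1, mt-Nd4, mt-Nd2, mt-Nd3 and mt-Nd5. No neighbours in that order had overlapping counting intervals. By ratio, the nearest neighbours in WT were mt-Co3, at 3936 CPM per kb, and mt-Co2, at 3553. Since a 3-prime library counts each mRNA near its end, division by length lowers long genes such as mt-Nd5 relative to their number of counted molecules. Without it, mt-Nd5 and mt-Nd3 were close to each other in both libraries, with 9297 and 8159 UMIs in WT and 10491 and 11336 in cKO.

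**Figure D1:**
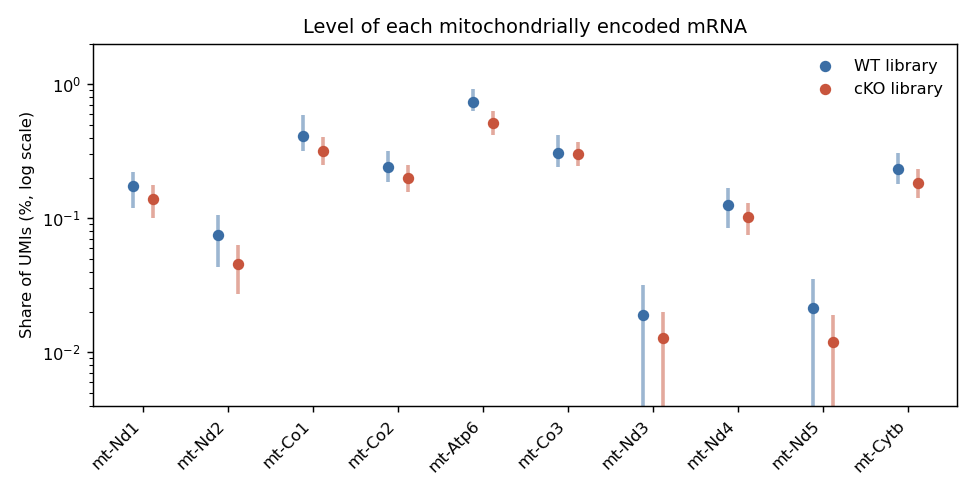
Share of UMIs (%, log scale) of each mRNA in the order of the genome. Points are shares over all kept cells of the WT (blue) and cKO (red) library and bars span the middle 50% of single cells, with bars that meet the lower edge starting at 0. mt-Atp6 is highest and mt-Nd3 and mt-Nd5 are lowest in both libraries.

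The mRNAs of complex I differed unevenly between the libraries. mt-Nd1, which forms part of the membrane arm next to the quinone site, was 0.174% of the UMIs of the WT library (74981 UMIs) and 0.139% of those of the cKO library (122980 UMIs), a log2 ratio of -0.32 (-0.33 to -0.30). mt-Nd2, a proton-pumping subunit of that arm, was 0.0744% of the UMIs of the WT library (32145 UMIs) and 0.0456% of those of the cKO library (40216 UMIs), a log2 ratio of -0.71 (-0.73 to -0.69). mt-Nd3, the smallest of the group here, was 0.0189% of the UMIs of the WT library (8159 UMIs) and 0.0128% of those of the cKO library (11336 UMIs), a log2 ratio of -0.56 (-0.60 to -0.52). Of these 3, mt-Nd2 differed most between the libraries and mt-Nd1 least. mt-Nd4, a pumping subunit like mt-Nd2, was 0.125% of the UMIs of the WT library (53929 UMIs) and 0.101% of those of the cKO library (89561 UMIs), a log2 ratio of -0.30 (-0.31 to -0.28). mt-Nd5, the pump at the far end of the arm, was 0.0215% of the UMIs of the WT library (9297 UMIs) and 0.0119% of those of the cKO library (10491 UMIs), a log2 ratio of -0.86 (-0.90 to -0.82). This was the lowest ratio of the 10. mt-Nd5 differed 1.81-fold and mt-Nd2 1.63-fold, and the other 8 differed by less than 1.5-fold.

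Of the complex IV mRNAs, mt-Co3 was nearly level between the libraries, and the other 2 were lower in cKO. mt-Co1, which binds the haem and copper where oxygen is reduced, was 0.410% of the UMIs of the WT library (176862 UMIs) and 0.320% of those of the cKO library (282799 UMIs), a log2 ratio of -0.35 (-0.36 to -0.35). mt-Co2, which takes electrons from cytochrome c, was 0.243% of the UMIs of the WT library (104943 UMIs) and 0.201% of those of the cKO library (177591 UMIs), a log2 ratio of -0.27 (-0.28 to -0.26). mt-Co3, a structural part of the core, was 0.309% of the UMIs of the WT library (133276 UMIs) and 0.301% of those of the cKO library (265231 UMIs), a log2 ratio of -0.04 (-0.05 to -0.03). The direction of mt-Co3 depended on the scaling, since its log2 ratio was 0.056 with TMM factors, 0.060 with size factors by median of ratios and 0.056 with mitochondrial and ribosomal protein genes left out of the total. mt-Cytb, the only mitochondrially encoded subunit of complex III, was 0.234% of the UMIs of the WT library (101229 UMIs) and 0.183% of those of the cKO library (161374 UMIs), a log2 ratio of -0.36 (-0.37 to -0.35). mt-Atp6 was 0.732% of the UMIs of the WT library (316158 UMIs) and 0.510% of those of the cKO library (450037 UMIs), a log2 ratio of -0.52 (-0.53 to -0.52). Being the most abundant, it carried the largest part of the difference in the summed share.

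Read against all genes, the members were lower without being extreme. At a minimum of 5 CPM in either library, 9143 genes could be compared, of which 13.7% were lower in cKO by more than 1.5-fold and 6.90% were higher by more than 1.5-fold. Of the 10 members, 2 (mt-Nd2 and mt-Nd5) were lower by more than 1.5-fold and 0 were higher. The median log2 ratio was -0.36 over the 10 members and -0.07 over all 9143 genes, of which the middle 50% lay between -0.37 and 0.20. Of all genes, 43.2% were higher in cKO, and 52.7% to 53.2% were under the 3 scalings just given, which moved the median of all genes to 0.03. All 10 members were below 0 as scaled here, and 9, all but mt-Co3, under those scalings. In cells of 5000 to 10000 UMIs, described below, 0 of 10 members were lower by more than 1.5-fold, against 11.2% of 9189 genes.

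The other 3 mitochondrially encoded mRNAs were low in these 3-prime libraries. mt-Atp8, whose mRNA ends in mt-Atp6, was counted 4922 times in WT and 3389 times in cKO (log2 ratio -1.57, -1.63 to -1.51). mt-Nd4l, whose mRNA ends in mt-Nd4, had 2937 and 3251 UMIs, a log2 ratio of -0.88 (-0.96 to -0.81). Both differed more between the libraries, 2.97-fold and 1.85-fold, than mt-Atp6 and mt-Nd4, which hold the ends of their mRNAs. mt-Nd6, the only mRNA of the light-strand transcript, was counted 163 and 294 times. The interval of its log2 ratio spanned 0 (-0.18, -0.46 to 0.10), so a difference was not detectable at these counts. Why its counts were low was not tested. The 10 members held 99.2% of all mitochondrial mRNA UMIs in WT and 99.6% in cKO.

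**Figure D2:**
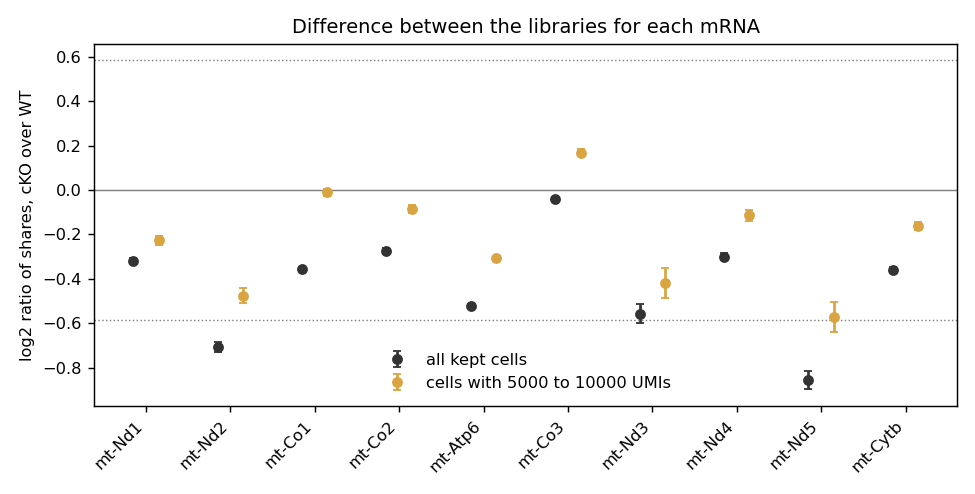
log2 ratio of the share of UMIs, cKO over WT, for each mRNA with its 95% counting interval, over all kept cells (black) and in cells with 5000 to 10000 UMIs (yellow). Dotted lines mark a 1.5-fold difference. Over all cells mt-Nd2 and mt-Nd5 lie below the lower line, and in the cells of like depth mt-Co3 lies above 0 and mt-Co1 at 0.

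Ratios among the 10 mRNAs do not depend on the library total or on the scaling, so they were compared next. As a share of the UMIs of the 10 mRNAs, mt-Co3 made up 13.2% in WT against 16.5% in cKO (log2 ratio 0.32, 0.31 to 0.33). mt-Atp6 was 31.3% and 27.9%, a log2 ratio of -0.16 (-0.17 to -0.16). The subunits of complex IV together were 41.1% in WT and 45.02% in cKO, and those of complex I 17.7% and 17.0%. mt-Cytb, at 10.0% in both libraries, and mt-Co1, at 17.5% and 17.5%, had intervals of the log2 ratio that spanned 0.

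The 45 pairs of members showed which ratios differed. The 3 pairs that differed most were mt-Co3 to mt-Nd5, mt-Nd2 to mt-Co3 and mt-Co2 to mt-Nd5. The ratio of mt-Co3 to mt-Nd5 was 14.3 in WT and 25.3 in cKO, with a log2 difference of 0.82 (0.78 to 0.86). That of mt-Nd2 to mt-Co3 was 0.241 in WT and 0.152 in cKO, with a log2 difference of -0.67 (-0.69 to -0.65). That of mt-Co2 to mt-Nd5 was 11.3 in WT and 16.9 in cKO, with a log2 difference of 0.58 (0.54 to 0.63). All 3 pairs set a complex IV subunit against mt-Nd5 or mt-Nd2. The pair that differed least was mt-Co1 to mt-Cytb, at 1.75 in WT and 1.75 in cKO, with a log2 difference of 0.00 (-0.01 to 0.02). Next came mt-Nd1 to mt-Nd4, at 1.39 in WT and 1.37 in cKO, with a log2 difference of -0.02 (-0.04 to 0.00), and mt-Co2 to mt-Nd4, at 1.95 in WT and 1.98 in cKO, with a log2 difference of 0.03 (0.01 to 0.05). Over the 45 pairs the median size of the difference was 0.25.

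The 9 pairs that are neighbours on the heavy strand did not keep their ratios. mt-Atp6 and mt-Co3, which adjoin with no tRNA between them, had a ratio of 2.37 in WT and 1.70 in cKO, with a log2 difference of -0.48 (-0.49 to -0.47). The ratio of mt-Co3 to mt-Nd3, the next gene, was 16.3 in WT and 23.4 in cKO, with a log2 difference of 0.52 (0.48 to 0.56). Toward the end of the transcript, mt-Nd4 to mt-Nd5 was 5.80 in WT and 8.54 in cKO, with a log2 difference of 0.56 (0.51 to 0.60), and mt-Nd5 to mt-Cytb was 0.0918 in WT and 0.0650 in cKO, with a log2 difference of -0.50 (-0.54 to -0.46). Along the genome the sign of the difference between neighbours turned at each inner gene except mt-Co1. The remaining neighbours were mt-Nd1 to mt-Nd2 (0.39), mt-Nd2 to mt-Co1 (-0.35), mt-Nd3 to mt-Nd4 (-0.26), mt-Co2 to mt-Atp6 (0.25) and mt-Co1 to mt-Co2 (-0.08), with the difference of the log2 ratio given in parentheses, and the last pair differed least. Whether reads shared with nuclear copies had a part in these ratios was not tested.

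**Figure D3:**
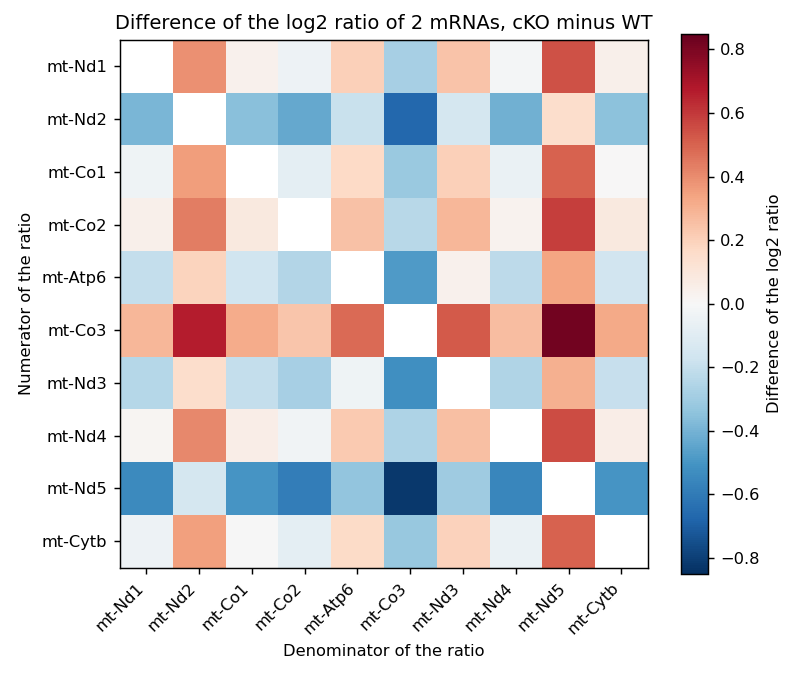
Difference of the log2 ratio of 2 mRNAs between the libraries, cKO minus WT, for the 45 pairs, with the numerator in rows and the denominator in columns and the genes in the order of the genome. The row of mt-Co3 is positive throughout, that of mt-Nd5 is negative throughout, and that of mt-Nd2 is negative except over mt-Nd5, where the value is 0.15.

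The share of the 10 mRNAs moved with the number of UMIs in a cell, and the cKO library was the deeper one, so the libraries were also compared in cells of like depth. In WT the summed share was 3.40% in cells of 1000 to 2000 UMIs and was lower in each deeper class, down to 1.65% in cells of 15000 to 20000 UMIs. In cKO it was 2.43%, 2.45% and 2.57% in the 3 shallowest classes, up to 5000 UMIs, and then lower in each class, down to 1.59%. The 2 classes under 3000 UMIs held 97 and 70 cKO cells, against 165 and 1769 WT cells. The log2 ratio of the summed share, -0.36 over all cells, was -0.49 and -0.27 in these 2 classes and between -0.11 and -0.04 in the 5 deeper ones. In all 7 classes the cKO share was the lower one. UMIs per cell are the denominator of the share and hold both sequencing depth and the RNA content of the cell, which cannot be told apart here.

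In cells with 5000 to 10000 UMIs, 2567 in WT and 3532 in cKO, the summed share was 2.26% and 2.06%, a log2 ratio of -0.14 (-0.14 to -0.13). These cells had median depths of 6492 and 7872.5 UMIs, so a gap in depth remained within the window. The members that stood lowest over all cells stayed lowest there. mt-Nd5 was 0.0204% and 0.0137% (log2 ratio -0.57, -0.64 to -0.50), and mt-Nd2 0.0712% and 0.0512% (-0.48, -0.51 to -0.44). mt-Nd3 and mt-Atp6 had log2 ratios of -0.42 and -0.31. mt-Co1 was 0.369% and 0.366% over the window (-0.01, -0.02 to 0.00), but it was higher in cKO in both depth classes within it, at 0.402% in WT and 0.430% in cKO from 5000 to 7000 UMIs and 0.332% and 0.346% from 7000 to 10000. mt-Co3 was higher in cKO, at 0.299% in WT and 0.336% in cKO (0.17, 0.15 to 0.18).

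The members divided in the same way across the 7 depth classes. mt-Nd2, mt-Nd3, mt-Nd4, mt-Nd5, mt-Atp6 and mt-Cytb were lower in cKO in 7 of 7 classes, and mt-Nd1 and mt-Co2 in 6 of 7. mt-Co1 and mt-Co3 were lower in only 2 of 7, those under 3000 UMIs. All classes compare the same 2 libraries, and how often all genes keep their direction over the classes was not counted. The log2 ratio of mt-Nd5 ranged from -1.06 to -0.44 over the classes and that of mt-Co3 from -0.35 to 0.39. For ratios among the mRNAs, the difference between the libraries was about as large in cells of like depth. In the window of 5000 to 10000 UMIs the median size of the difference over the 45 pairs was again 0.25, and 41 of 45 pairs had the sign they had over all cells. The largest, again mt-Co3 to mt-Nd5, was 0.74. Within WT, mt-Co1 varied most with depth. Its share in the deepest class was 0.341 of that in the shallowest, against 0.871 for mt-Nd3.

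**Figure D4:**
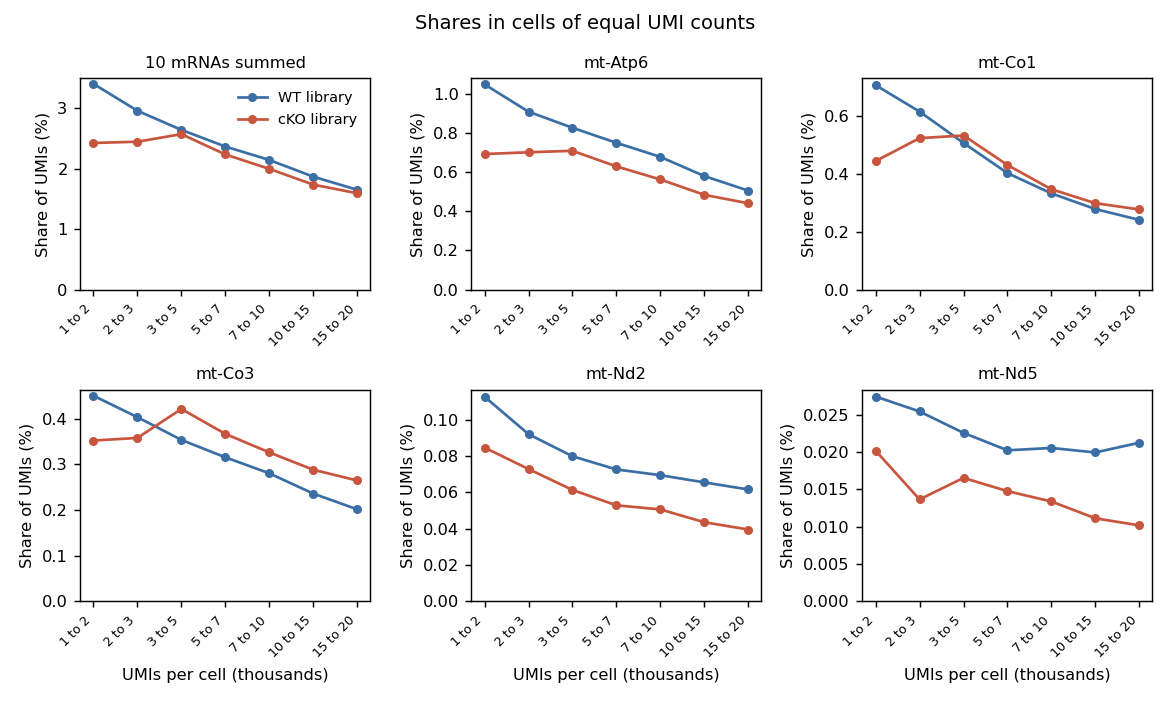
Share of UMIs (%) in cells of 7 classes of UMIs per cell (in units of 1000), for the 10 mRNAs summed and for 5 members, in the WT (blue) and cKO (red) library. The summed share is lower in deeper WT cells, mt-Nd2 and mt-Nd5 are lower in cKO in every class, and mt-Co3 and mt-Co1 are higher in cKO from 3000 UMIs upward.

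Cells were gated by lineage markers, after thinning to 2000 nuclear UMIs so that depth did not decide which markers were seen. The HSC gate held 262 WT and 944 cKO cells, the lymphoid gate 408 and 193, the granulocyte-monocyte gate 2960 and 195, and the megakaryocyte gate 272 and 78. The erythroid gate, with 29 and 15 cells, was too small to describe, and 50.4% of WT and 83.0% of cKO cells were in no gate. The levels of gate markers follow from the gating and are given only as a description. Procr, a stem cell receptor and HSC marker, was at 90.3 and 96.1 CPM in the HSC gate and at 6.78 and 8.16 CPM in the granulocyte-monocyte gate. The granule enzyme Mpo, a granulocyte-monocyte marker, was at 4128 and 1735 CPM in the latter, but also at 135 CPM in the WT and 3.64 CPM in the cKO HSC gate. Whether that was free RNA in the droplets was not tested. S100a8, a neutrophil gene, was at 852 CPM in the granulocyte-monocyte gate and 114 CPM in the HSC gate of WT, and at 3664 CPM in its cells in no gate.

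In both libraries the summed share of the 10 mRNAs was highest in the HSC gate and next in the lymphoid gate. In WT it was 2.75% (2.72% to 2.79%) in the HSC gate, 2.58% (2.56% to 2.61%) in the lymphoid gate, 2.26% (2.24% to 2.29%) in the megakaryocyte gate and 2.16% (2.16% to 2.17%) in the granulocyte-monocyte gate. None of these 4 intervals overlapped. In cKO it was 2.08% (2.07% to 2.09%) in the HSC gate, 1.92% (1.90% to 1.94%) in the lymphoid gate, 1.68% (1.65% to 1.70%) in the megakaryocyte gate and 1.67% (1.65% to 1.68%) in the granulocyte-monocyte gate, and only the last 2 overlapped. Depth moved with this order, since the median cell of the WT HSC gate had 3037.5 UMIs and that of the WT granulocyte-monocyte gate 5929.5. In cells of 5000 to 10000 UMIs the WT shares were 2.46% (HSC, 31 cells), 2.41% (lymphoid), 2.23% (granulocyte-monocyte) and 2.14% (megakaryocyte). In cKO they were 2.15%, 2.03%, 2.10% and 2.04% in that order, the last 2 from 27 and 26 cells, and the intervals of the last 3 overlapped. At this depth the HSC gate did not stand apart either, since its interval overlapped that of the lymphoid gate in WT and that of the granulocyte-monocyte gate in cKO.

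The summed share was lower in cKO in each of the 4 gates. The log2 ratio was -0.41 (-0.42 to -0.39) in the HSC gate, -0.43 (-0.45 to -0.41) in the lymphoid gate, -0.38 (-0.39 to -0.36) in the granulocyte-monocyte gate and -0.43 (-0.46 to -0.40) in the megakaryocyte gate. In the cells in no gate it was -0.47 (-0.47 to -0.46). With the same mix of the 4 gates in both libraries, and the cells in no gate left out, the log2 ratio was -0.40. The values of the 4 gates depended on the gate definition. With 1 more marker required they were -0.36 (HSC), -0.22 (lymphoid), -0.24 (granulocyte-monocyte) and -0.42 (megakaryocyte, with 21 cKO cells). Depth moved with the libraries within the gates too, and in cells of 5000 to 10000 UMIs the log2 ratios were -0.19, -0.25, -0.09 and -0.07. Each of the 10 members was lower in cKO in 4 of 4 gates beyond its counting interval. In the depth window 5 of 10 were lower in all 4 by the direction of the log2 ratio alone, without regard to its interval. Over the 4 gates the log2 ratio of mt-Nd5 ranged from -0.89 to -0.65, that of mt-Nd2 from -0.83 to -0.47 and that of mt-Co3 from -0.24 to -0.08. The order of the members was not the same in each gate. In the megakaryocyte gate mt-Nd3, mt-Co1 and mt-Atp6 were below mt-Nd2, and in the lymphoid gate mt-Nd1, at -0.15, was above mt-Co3. For 7 members the 4 WT shares lay above the 4 cKO shares, while those of mt-Co1, mt-Co2 and mt-Co3, the subunits of complex IV, overlapped. How many of all genes are lower in all 4 gates, or separate in this way, was not counted. These counts are therefore descriptions without a background.

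**Figure D5:**
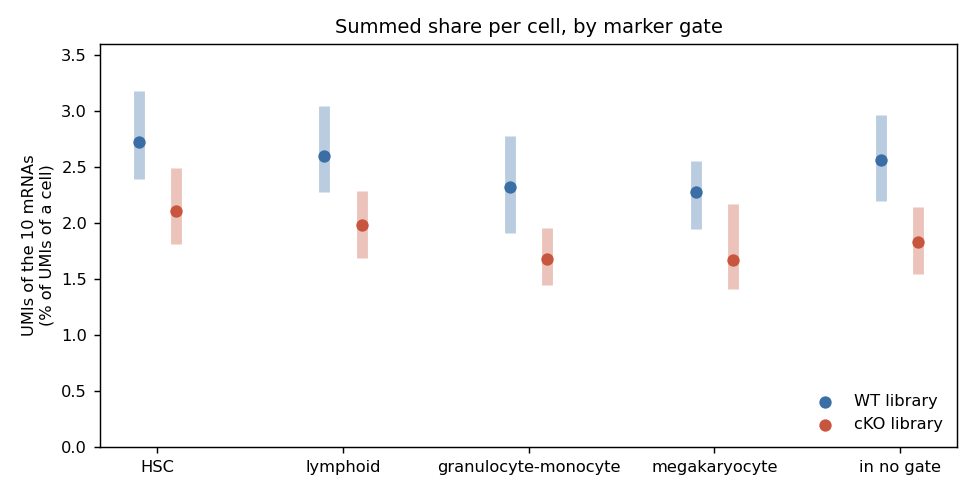
UMIs of the 10 mRNAs as a share of the UMIs of a cell (%), by marker gate and for cells in no gate. Points are medians over cells of the WT (blue) and cKO (red) library and bars span the middle 50% of cells. The HSC gate is highest in both libraries and the cKO median is lower in every gate.

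For 5 of the 10 mRNAs, the shares of member UMIs in the 4 WT gates and the 4 cKO gates did not overlap. The 10 shares add up to a fixed total, so they are not independent of each other. No count of this kind was made for other genes. mt-Co3 was 12.9% to 13.7% of member UMIs over the 4 WT gates and 15.2% to 16.4% over the cKO gates. mt-Co2 was 10.0% to 10.5% and 10.9% to 11.3%, also higher in cKO. mt-Atp6 was 30.5% to 31.4% in WT and 27.3% to 29.0% in cKO. mt-Nd2 (2.77% to 3.28% and 2.39% to 2.69%) and mt-Nd5 (0.755% to 0.998% and 0.605% to 0.724%) were also lower in cKO, although in the megakaryocyte gate the counting intervals of their log2 ratios, -0.04 (-0.22 to 0.13) and -0.32 (-0.69 to 0.04), spanned 0. The gates of a library share its depth and its preparation, so they are not replicates.

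In percentage points, mt-Co1 varied most between the gates of a library. In WT it was 16.4% of member UMIs in the granulocyte-monocyte gate, 17.7% in the megakaryocyte gate, 19.3% in the HSC gate and 20.8% in the lymphoid gate. In cKO it was 18.1%, 15.8%, 17.5% and 21.7% in that order. The lymphoid gate was highest in both libraries. mt-Nd1 ran the other way in WT, from 6.21% in the lymphoid gate to 7.94% in the granulocyte-monocyte gate. In cKO the latter gate was again the highest for mt-Nd1, at 8.28%.

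Cells were also split by 10 genes of the G2/M phase, with the same thinning. At least 3 of these genes were seen in 2097 WT and 1735 cKO cells, and none in 3550 and 4145. In WT the summed share was 2.21% in the G2/M cells and 2.54% in the cells without these genes, where the median depths were 6505 and 3407.5 UMIs. In cKO the 2 shares were 1.86% and 1.83%, at median depths of 12146 and 8845 UMIs. The difference between the libraries was thus -0.25 (-0.25 to -0.24) on the log2 scale in G2/M cells and -0.47 (-0.47 to -0.46) in cells without these genes. mt-Nd5 was lower in cKO in both, with log2 ratios of -0.79 and -0.94. mt-Co3 was 0.287% in WT and 0.305% in cKO G2/M cells, and 0.339% and 0.303% in the others.

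The nuclear genes that replicate, transcribe, process and translate the mitochondrial genome had a higher median log2 ratio than the mRNAs. Of 49 such genes at 5 CPM or more, 2 were lower in cKO by more than 1.5-fold, against 13.7% of all genes, and 0 were higher, against 6.90%. Their median log2 ratio was 0.11, against -0.07 over all genes. Among 9 transcription genes, Tfam, which packages mitochondrial DNA and starts its transcription, was highest, at 44.99 CPM in WT against 60.2 CPM in cKO (log2 ratio 0.42, 0.34 to 0.50). Mterf1a, a terminator of that transcription with a near-identical copy (Mterf1b), was lowest, at 19.1 CPM in WT against 10.9 CPM in cKO (log2 ratio -0.81, -0.95 to -0.68). The second gene past 1.5-fold was Mterf2 of the same family, at 5.67 CPM in WT against 3.46 CPM in cKO (log2 ratio -0.72, -0.96 to -0.47), named here after its value was seen. Of 7 RNA processing genes none passed 1.5-fold. Hsd17b10, a part of the RNase P that frees mitochondrial tRNAs, was at 179 CPM in WT against 242 CPM in cKO (log2 ratio 0.44, 0.40 to 0.48), and the catalytic part of that enzyme, listed as 1110008L16Rik (Prorp), at 16.02 CPM in WT against 12.4 CPM in cKO (log2 ratio -0.37, -0.51 to -0.23).

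Of 12 genes of mitochondrial RNA stability, 11 had a log2 ratio above 0, against 43.2% of all genes, and for Supv3l1 and Fastkd3 among these 11, named after their values were seen, the counting interval spanned 0. The median log2 ratio was 0.18, and none passed 1.5-fold in either direction. Rexo2, which degrades short RNA in mitochondria, was highest, at 138 CPM in WT against 202 CPM in cKO (log2 ratio 0.55, 0.51 to 0.59). Lrpprc, which binds and stabilizes mitochondrial mRNAs, was the lowest, at 16.3 CPM in WT against 14.9 CPM in cKO (log2 ratio -0.13, -0.26 to 0.00). Among 5 genes of mitochondrial DNA replication, Mgme1, an exonuclease, was highest, at 27.4 CPM in WT against 28.3 CPM in cKO (log2 ratio 0.04, -0.06 to 0.14), and Polg2, the accessory subunit of the polymerase, was lowest, at 8.22 CPM in WT against 5.51 CPM in cKO (log2 ratio -0.58, -0.78 to -0.38). Among 12 translation genes, the elongation factor Tsfm was highest, at 61.8 CPM in WT against 88.1 CPM in cKO (log2 ratio 0.51, 0.45 to 0.58), and the initiation factor Mtif3 was lowest, at 16.1 CPM in WT against 12.6 CPM in cKO (log2 ratio -0.35, -0.49 to -0.21). Of 4 nuclear regulators of respiratory genes, Ppargc1b, a coactivator, was highest, at 6.02 CPM in WT against 8.09 CPM in cKO (log2 ratio 0.42, 0.22 to 0.64), and the transcription factor Gabpa was lowest, at 13.2 CPM in WT against 11.3 CPM in cKO (log2 ratio -0.23, -0.38 to -0.08).

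The nuclear-encoded subunits of the same complexes were set beside the members. Of 71 such genes, 49 had a log2 ratio above 0 and 22 below 0, against 43.2% above 0 among all genes, and the median was 0.10. By more than 1.5-fold, 2 were higher in cKO, against 6.90% of all genes, and 0 were lower, against 13.7%. By complex, the median was 0.12 over 37 genes of complex I, 0.17 over 9 of complex III, 0.07 over 10 of complex IV and 0.02 over 15 of complex V. The 10 members, summed by complex and so without mt-Nd4l, mt-Nd6 and mt-Atp8, had log2 ratios of -0.41, -0.36, -0.23 and -0.52. The 2 highest nuclear genes were Uqcrq, at 463 CPM in WT against 740.0 CPM in cKO (log2 ratio 0.68, 0.65 to 0.70), and Cyc1, which encodes cytochrome c1, at 188 CPM in WT against 292 CPM in cKO (log2 ratio 0.63, 0.59 to 0.67), both of complex III. The 2 lowest were Ndufa4, at 1469.8 CPM in WT against 982 CPM in cKO (log2 ratio -0.58, -0.60 to -0.57), and Ndufa3, at 562 CPM in WT against 389.6 CPM in cKO (log2 ratio -0.53, -0.55 to -0.50). Both bear the name of complex I, although the Ndufa4 protein is now counted with complex IV.

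Among 1919 nuclear genes at 50 CPM or more in each of the 4 gates of both libraries, the 5 whose log2 CPM followed the summed members best over these 8 points were Pfdn5 (Pearson r = 0.999), Fam32a (0.983), Dync1i2 (0.983), Zfp36l2 (0.981) and Nsa2 (0.980). Pfdn5, a subunit of the chaperone prefoldin, was at 709 CPM in the WT and 499 CPM in the cKO HSC gate, and at 525 and 372 CPM in the granulocyte-monocyte gate. The 4 points of a library share its depth and base composition, and the best of 1919 values is high by choice, so these are descriptions only.

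The limit of 10% mitochondrial UMIs touched few cells. Within the other limits, 46 WT and 38 cKO cells lay above it, with median depths of 694.5 and 1103 UMIs. A further 74 WT and 23 cKO cells lay between 5% and 10%. In the cells above 10%, mt-Co3 was 13.6% of member UMIs in WT and 16.1% in cKO. mt-Atp6 was 30.2% and 27.3%, and mt-Nd2 2.71% and 1.87%. These 3 differences between the libraries had the same direction as in the kept cells.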

How the data were processed

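The deposited files hold 3-prime single-cell UMI counts, whole numbers for each gene in each barcode, from 1 Trmt6 WT and 1 Trmt6 cKO sample, grouped by genotype as labelled. The authors made them with Cell Ranger 6.0.0 on mm10. The annotation release is not given in the sources used here. The labels name reagent kit v2 and the study's methods v3, so the chemistry is uncertain.

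In both libraries, cells were kept with more than 200 genes, fewer than 4000 (WT) or 4500 (cKO) genes, and under 10% mitochondrial and 5% haemoglobin UMIs. A doublet score, the fraction of simulated doublets among 50 neighbours in 20 components of 1500 variable genes, was used to remove 617 WT and 677 cKO cells, at 0.8% per 1000 barcodes. The cells kept were 91.8% of barcodes in each library, with 43184516 UMIs in WT and 88258838 in cKO, summed over cells. Log2 ratios (cKO over WT) were taken after 0.5 was added to each count. Intervals were exact (Clopper-Pearson for shares, conditional binomial for ratios, scipy 1.17.1), except a normal approximation for ratios of 2 members. They are no measure of the spread between mice.

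A cell was gated when at least 2 markers of a lineage (3 for granulocyte-monocyte) were seen after thinning to 2000 nuclear UMIs, and more than of any other lineage. This left out 216 WT and 113 cKO cells with fewer UMIs. The markers were Procr, Mecom, Hlf, Fgd5, Mllt3, Pdzk1ip1, Slamf1 and Hoxb5 (HSC), Dntt, Flt3, Il7r, Satb1, Rag1, Rag2, Ccr9 and Blnk (lymphoid), Mpo, Elane, Prtn3, Ctsg, Ms4a3 and Cebpe (granulocyte-monocyte) and Pf4, Itga2b, Gp9, Gp1bb, Gp5, Ppbp and Cavin2 (megakaryocyte). Positions and sequences came from GENCODE M21, which all 10 members matched by gene ID. Genes were named by rule: the members, the 3 other mitochondrial mRNAs, Trmt6, the highest and lowest log2 ratio in each group of the machinery list, the 2 highest and 2 lowest nuclear-encoded subunits and the 5 genes most like the members. The members and lists were chosen with earlier results of these data known. Alternatives were other cell limits, no doublet removal, equal weight of cells, other totals, TMM factors (edgeR 4.0.16), median-of-ratios size factors, other gates, a fixed mix of gates and cells of like depth. The ratio and interval functions were tested on simulated data.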

Additional observations from a re-analysis of the deposited data

Results flagged for a closer look

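Within lineage gates or cycle states, 5 quantities had opposite directions between the libraries beyond counting error. With 1 library per group the difference between gates or states was not tested, and no gate or state has a replicate.

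mt-Co1 as a share of member UMIs was higher in cKO in the lymphoid gate (log2 ratio 0.06) and in the granulocyte-monocyte gate (0.14), and lower in the HSC gate (-0.14) and in the megakaryocyte gate (-0.17). In cells of 5000 to 10000 UMIs the same log2 ratios were 0.20 (lymphoid), 0.36 (granulocyte-monocyte), 0.01 (HSC) and 0.08 (megakaryocyte), and the intervals of the HSC and megakaryocyte values spanned 0.

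Between cells in G2/M and cells without G2/M genes, mt-Co3 as a share of all UMIs had log2 ratios of 0.09 and -0.16. As shares of member UMIs, mt-Co1 had 0.06 and -0.06, mt-Nd1 had -0.04 and 0.15, and mt-Cytb had -0.02 and 0.02. The median depth of the cells was 6505 (WT) and 12146 (cKO) UMIs in G2/M and 3407.5 and 8845 UMIs without G2/M genes, and its part in these values was not tested.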

How the results depend on the processing

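No paired analysis was possible because each group has 1 library. The log2 ratio of the summed share, -0.36 as reported, stayed below 0 under each alternative. It was -0.35 with a limit of 5% mitochondrial UMIs, -0.35 with no upper limit on genes, -0.35 with no doublet removal, -0.37 with nuclear UMIs as the total and -0.37 without cells with neutrophil markers. It was -0.41 (median of the 10 members -0.43) with equal weight of cells. With a fixed mix of the 4 gates, which leaves out the cells in no gate, it was -0.40 (-0.44). It was -0.26 (-0.26) without mitochondrial and ribosomal protein genes in the total, -0.26 (-0.26) with TMM factors and -0.26 (-0.26) with median-of-ratios size factors. In cells of 5000 to 10000 UMIs it was -0.14 (-0.19). Among single members, mt-Co3 changed sign, to 0.056, 0.056 and 0.060 under these 3 scalings and 0.17 in the depth window, and the other 9 kept their direction under 13 alternatives. The scalings moved the median log2 ratio of all genes from -0.07 to 0.03. The number of members past 1.5-fold, 2, was 0 in the depth window. By direction alone, the number lower in all 4 gates, 10, was 5 in that window and 8 with 1 more marker for each gate. The removal of neutrophil cells, and the depth window for these counts and for ratios among members, were chosen after seeing the data, and the causes were not tested. The number of machinery genes lower by more than 1.5-fold, 2, was 0 at a minimum of 20 CPM, where fewer genes were compared, and with TMM or median-of-ratios factors 2 others were higher by more than 1.5-fold. The lists of nuclear genes were not compared at like depth. Under the alternatives run for them, the median size of the differences over the 45 pairs was 0.24 to 0.25 and the median log2 ratio of the machinery genes 0.11 to 0.22. Gates of under 50 cells (erythroid, and in the depth window WT HSC, cKO granulocyte-monocyte and cKO megakaryocyte) rest on few cells.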
